A study of Mus musculus with 2 samples.

Results

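Gsdmc and Cyp2c68 nuclei are colon epithelial nuclei with transcripts of the gasdermin C genes, Cyp2c68 and other genes listed next. They were chosen by their own measured values. A nucleus was a member if at least 4 of the 9 genes Gsdmc2, Gsdmc3, Gsdmc4, Cyp2c68, Hao2, Aqp4, Zan, Paqr5 and Pitpnm3 were detected and if these rule genes held at least 0.3% of its unique molecular identifiers (UMIs, counts of captured RNA molecules). A member also had fewer than 3 of the 5 genes Ceacam20, Slc9a3, Slc37a2, Tgm3 and Nlrp9b detected, which mark surface absorptive cells. The rule held for 444 of 9586 nuclei, 180 of 4884 in the WT library and 264 of 4702 in the HIF-1α KO library.

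The nuclei came from frozen colon of mice aged 8 to 12 weeks, taken at day 28 of a chronic colitis made with 4 cycles of 3 days of 2% dextran sodium sulfate (DSS) and 4 days of recovery. Both groups received DSS, so no library of undamaged colon was compared. WT were littermates, and HIF-1α KO animals were Ncr1cre+ with floxed Hif-1α alleles. The Ncr1 promoter drives Cre in NKp46+ innate lymphoid cells, so the epithelium of HIF-1α KO animals carried intact Hif-1α by design. Hif1a had 161 counts per 1000000 UMIs (CPM) in WT and 184 CPM in HIF-1α KO member nuclei, and this level is no check of a deletion made in other cells. Tissue of 3 animals was pooled for each library and each group had 1 library, so no difference between groups could be tested and no p-value is given. All intervals are 95% intervals and cover counting error only.

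Gasdermins are pore-forming proteins that are activated by proteolytic cleavage, and the gasdermin C genes of the mouse intestine are known to be induced by the type 2 cytokines IL-4 and IL-13. Colon epithelium is renewed from stem cells at the crypt base. Their progeny divide, stop dividing and move up to the surface, and on the way they exchange the chloride secretion machinery of the crypt, with the channel Cftr, for absorptive transporters such as the chloride-bicarbonate exchanger Slc26a3. Cytochrome P450 enzymes of the Cyp2c family oxidise fatty acids and xenobiotics, and Hao2 is a peroxisomal hydroxyacid oxidase.

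On GRCm38 the gasdermin C genes lie next to each other on the minus strand of chromosome 15, with Gsdmc2 (ENSMUSG00000056293) at 63824346 to 63845177, Gsdmc3 (ENSMUSG00000055827) at 63857724 to 63878558 and Gsdmc4 (ENSMUSG00000055748) at 63891264 to 63912297. Their longest coding transcripts are near-identical copies, with 97.4% of aligned bases shared by Gsdmc2 and Gsdmc3, 94.8% by Gsdmc2 and Gsdmc4 and 94.5% by Gsdmc3 and Gsdmc4. Cyp2c68 (ENSMUSG00000074882, chromosome 19, 39688834 to 39741054) shares 98.0% with Cyp2c40 and 97.0% with Cyp2c67. Reads of such copies may have been split or lost in counting, so the values of each of these genes are uncertain between neighbours. Promoters of 6 of the 9 rule genes were found by symbol in the list of RefSeq promoters used here. The 250 bases before the start are shown for Gsdmc3, the one gasdermin C gene of the rule with a promoter in the table used, and for the enzymes Cyp2c68 and Hao2, because these genes were used together in the rule. They were searched on both strands for CAAAGTNCA (HNF4), GTTAAT (part of the HNF1 site), TTTATNG (CDX) and AGATAA (bound by GATA factors). All are motifs of factors of gut epithelium, and matches are in capitals.
Gsdmc3 (chr15:63878559-63878808, strand -): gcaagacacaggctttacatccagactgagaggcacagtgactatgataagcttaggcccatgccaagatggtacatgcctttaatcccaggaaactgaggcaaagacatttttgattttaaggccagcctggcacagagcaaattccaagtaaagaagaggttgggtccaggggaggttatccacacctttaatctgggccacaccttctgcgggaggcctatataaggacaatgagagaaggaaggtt
Cyp2c68 (chr19:39741102-39741351, strand -): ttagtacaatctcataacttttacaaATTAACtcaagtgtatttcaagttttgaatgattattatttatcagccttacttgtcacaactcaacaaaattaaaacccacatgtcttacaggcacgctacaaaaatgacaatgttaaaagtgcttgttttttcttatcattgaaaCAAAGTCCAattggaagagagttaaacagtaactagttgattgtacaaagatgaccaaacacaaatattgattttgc
Hao2 (chr3:98893231-98893480, strand -): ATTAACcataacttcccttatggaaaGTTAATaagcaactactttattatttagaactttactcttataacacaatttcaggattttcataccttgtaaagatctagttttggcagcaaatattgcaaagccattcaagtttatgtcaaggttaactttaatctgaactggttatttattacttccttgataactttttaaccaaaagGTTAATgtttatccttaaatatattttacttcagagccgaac
The Cyp2c68 stretch held 1 match to CAAAGTNCA and 1 to GTTAAT, and the Hao2 stretch held 3 matches to GTTAAT. The stretches of Gsdmc3, Zan, Paqr5 and Pitpnm3 held none of the 4 motifs. Of 27025 promoters of this length, 1.21% held CAAAGTNCA, 6.52% GTTAAT, 10.2% TTTATNG and 10.3% AGATAA. A match of these letters is not a measured binding site.

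The HIF-1α KO library was about as large in nuclei as the WT library but deeper, with a median of 4197 against 2058.5 UMIs per kept nucleus. Member nuclei had a median of 2977 UMIs (middle 50% from 2276 to 4211.5) and 1717 genes in WT, and 4944 UMIs (3769.5 to 6489.25) and 2477.5 genes in HIF-1α KO. The libraries shared 3 barcodes, and 1 HIF-1α KO member carried a shared barcode. For comparison, other nuclei were gated with fixed genes. Surface-gate nuclei had at least 3 of the 5 surface genes at 0.1% of UMIs or more (331 in WT and 782 in HIF-1α KO). Crypt-gate nuclei had both Cftr and Htr4, a serotonin receptor, at 0.1% of UMIs or more and were neither members nor surface-gate nuclei (1350 and 1274). Stromal-gate nuclei, from fibroblasts and smooth muscle, should lack the epithelial genes and give the level of free RNA (264 and 129, with medians of 2306 and 3709 UMIs).

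The rule genes define the members, so their levels are a description. Gsdmc2 had 512 CPM in WT and 570 CPM in HIF-1α KO members, against 77.2 and 106 CPM in crypt-gate nuclei. Its level in stromal-gate nuclei was 35.0 and 35.8 CPM. Gsdmc3 had 201 and 271 CPM in members and Gsdmc4 381 and 494 CPM. Levels above those of stromal-gate nuclei are set by the rule for these genes. Cyp2c68 had 386 and 417 CPM in members and 28.3 and 23.9 CPM in stromal-gate nuclei. Hao2 had 357 and 441 CPM in members, and Zan, which encodes the sperm protein zonadhesin, had 729 and 767 CPM. The water channel Aqp4 had 1056 CPM in WT and 692 CPM in HIF-1α KO members, and 70.1 and 64.8 CPM in stromal-gate nuclei. Aqp4 was the only rule gene whose interval of the ratio between libraries lay below 0. Paqr5, a membrane progestin receptor, had 228 and 289 CPM in members, and Pitpnm3, of the phosphatidylinositol transfer protein family, had 131 and 126 CPM.

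**Figure D1:**
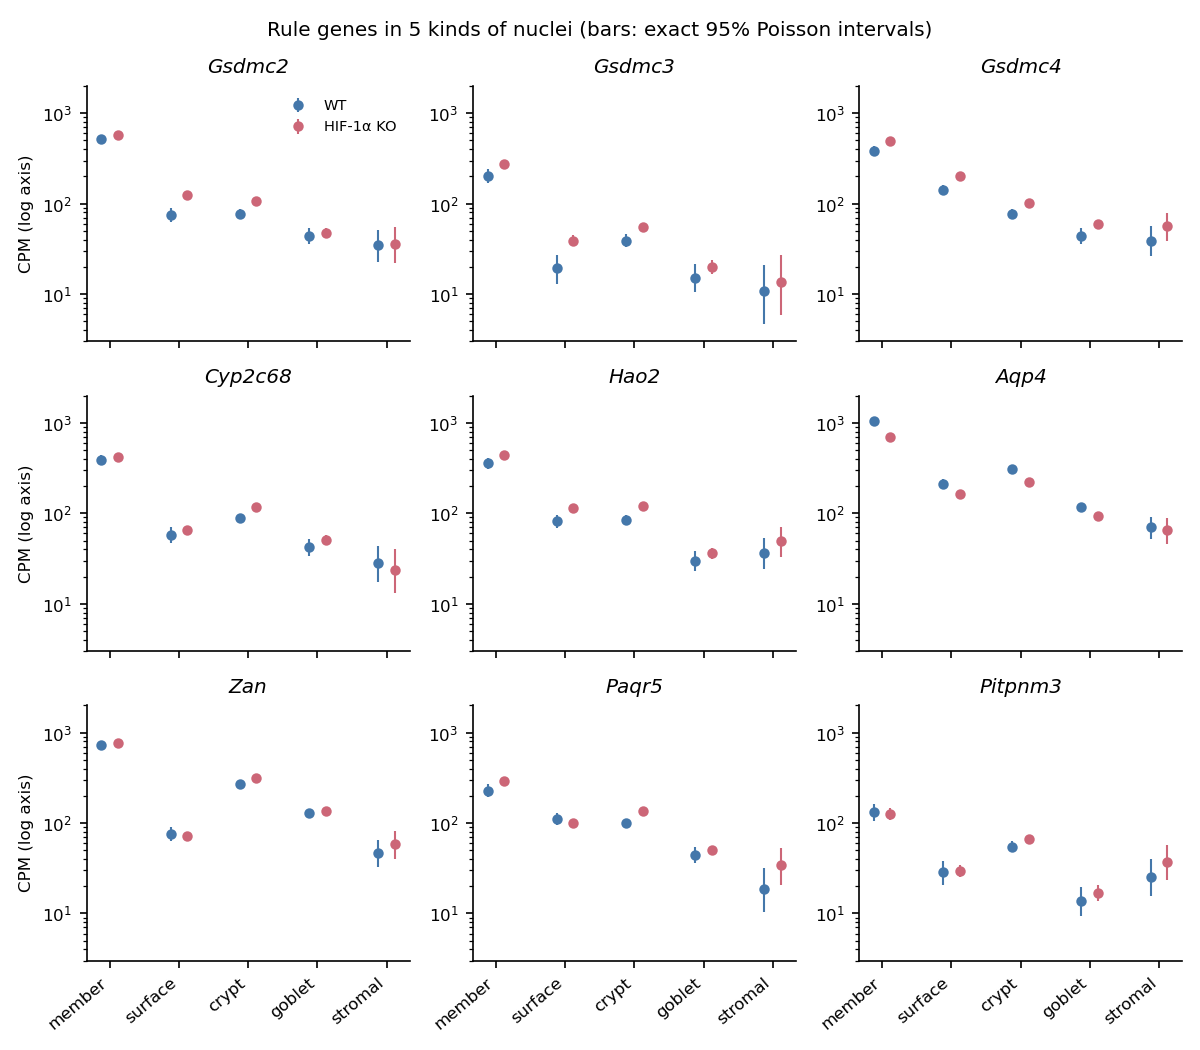
CPM (log axis) of the 9 rule genes in member, surface-gate, crypt-gate, goblet-gate and stromal-gate nuclei of the WT and HIF-1α KO libraries, with exact 95% Poisson intervals. Each rule gene was highest in the member nuclei, as the rule sets, and the crypt-gate nuclei lay between the members and the stromal-gate nuclei.

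Detection followed depth. Gsdmc2 was detected in 68.3% of members in WT and 83.3% in HIF-1α KO, but in 33.9% and 39.4% after every nucleus was thinned to 1000 UMIs. In stromal-gate nuclei the thinned shares were 4.92% and 6.20%. After thinning, Aqp4 was detected in 58.3% of members in WT and 45.1% in HIF-1α KO, and Zan in 47.2% and 50.4%. The median number of rule genes detected per member was 5 in WT and 7 in HIF-1α KO, and all 9 were detected in 4 and 16 nuclei.

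The threshold fell in a densely filled range. Rule genes held a median of 0.363% of UMIs in WT and 0.372% in HIF-1α KO members, and 63.3% and 61.7% of the members lay between 0.3 and 0.4%. Just outside, 154 WT and 287 HIF-1α KO nuclei had at least 4 rule genes at 0.2 to 0.3% of their UMIs. A further 22 and 11 nuclei reached 0.3% with 3 rule genes, and 15 and 54 met both limits but had 3 or more surface genes. The members are therefore a range cut from a continuous measure. Each share rests on few UMIs, so counting error can also fill this range. Whether the members are a separated type cannot be told from these shares. Of the members, 120 (66.7%) in WT and 162 (61.4%) in HIF-1α KO also had both Cftr and Htr4, 0 and 9 passed the goblet gate, and 0 passed the stromal gate in either library.

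The label was checked with markers that the rule did not use. The rule leaves out nuclei with 3 or more surface genes and the surface gate requires them, so lower surface markers than in surface-gate nuclei follow in part from the selection. Epcam, an epithelial adhesion molecule, had 267 and 404 CPM in members and 119 and 186 CPM in stromal-gate nuclei. Hnf4g, a transcription factor of enterocytes, had 1059 and 1293 CPM against 651 and 723 CPM in surface-gate nuclei. Its level was not particular to members, as crypt-gate nuclei with 0.2 to 0.3% of UMIs in rule genes had 1167 and 1068 CPM. Of 30 transcriptional regulators of the epithelium, 1 was at least 2-fold higher in members than in surface-gate nuclei in both libraries and 5 were lower. Over all genes tested, 7.55% were higher and 6.36% lower. The median log2 ratios of the regulators were -0.19 in WT and -0.12 in HIF-1α KO, beside 0.17 and 0.27 for all genes. Krt20, a keratin of surface cells, had 44.3 and 79.1 CPM in members, below the 91.6 and 136 CPM in stromal-gate nuclei. Car4, a carbonic anhydrase of the surface, had 47.4 and 88.8 CPM in members against 916 and 979 CPM in surface-gate nuclei. Krt20 did not exceed the level of free RNA, and Car4 was low against surface-gate nuclei. The nuclei are therefore named here by their rule genes and not as mature enterocytes. Defining markers of other cell types were low. The summed level of 12 stromal genes was 261 CPM in WT and 168 CPM in HIF-1α KO members against 10713 and 15398 CPM in stromal-gate nuclei, and 14 immune genes summed to 115 and 85.4 CPM. The 10 tuft cell genes summed to 19.0 and 8.33 CPM, with 6 of them at 0 in each library. The 14 goblet genes summed to 1276 and 1699 CPM, which was under the 1350 and 2029 CPM of stromal-gate nuclei. The 10 genes of the response to type 2 cytokines summed to 160 CPM in members of each library, near the 156 and 186 CPM of stromal-gate nuclei. These sums rest on 101 and 230 UMIs in members, with 5 and 4 of the genes at 0. Whether members respond to type 2 cytokines was not tested.

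The members differed among themselves in some genes with the number of surface genes detected. In WT, Slc26a3 had 199 CPM in the 96 members without a surface gene, 344 CPM in the 59 with 1 and 584 CPM in the 25 with 2. In HIF-1α KO the corresponding levels were 608, 658 and 722 CPM in 108, 101 and 55 members. Lrig1, a receptor that is high in crypt base cells, had 472, 367 and 227 CPM in the same WT groups and 362, 361 and 221 CPM in HIF-1α KO. Other surface markers did not follow this number, as Car4 had 49.7, 41.3 and 54.1 CPM in WT and 90.0, 87.3 and 89.2 CPM in HIF-1α KO, and Krt20 34.1, 59.7 and 43.3 CPM in WT and 77.9, 61.3 and 111 CPM in HIF-1α KO. Members with more surface genes were also somewhat deeper, with median UMIs from 2881.5 to 3388 in WT and from 4867 to 5157 in HIF-1α KO. Members that passed the crypt gate had more Lrig1 than those that did not, with 454 against 275 CPM in WT and 377 against 244 CPM in HIF-1α KO. They had less Gsdmc2, with 463 against 624 CPM in WT and 483 against 729 CPM in HIF-1α KO. Rule genes did not all move this way, as Zan had 788 against 592 CPM in WT and 863 against 592 CPM in HIF-1α KO. The rule chose nuclei by the summed UMIs of these genes, so such differences between members are a description only.

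Genes outside the rule were then followed over the share of rule genes, in nuclei that passed the member rule or the crypt gate and had fewer than 3 surface genes. Stem cell and division genes were lower at 0.3 to 0.5% than in nuclei without a rule gene in both libraries. Smoc2, a stem cell marker, went from 136 CPM in WT and 210 CPM in HIF-1α KO nuclei without a rule gene to 3.55 and 18.1 CPM at 0.3 to 0.5% of UMIs, and had 31.4 and 4.38 CPM from 0.5% on. Lgr5, the classical marker of intestinal stem cells, went from 36.4 and 44.4 CPM to 0 UMIs in WT, where a count of 0 allows up to 3 UMIs, and 2.46 CPM in HIF-1α KO. Top2a, a topoisomerase of dividing cells, first went up from 211 and 161 CPM to 266 and 257 CPM at shares under 0.1%, and was at 39.0 and 19.7 CPM at 0.3 to 0.5%. Other genes were higher there. Nr3c2, the mineralocorticoid receptor, went from 1365 and 1885 CPM to 2791 and 4098 CPM, and Slc13a2, a sodium-coupled dicarboxylate transporter, from 34.5 and 16.1 CPM to 151 and 259 CPM. Trpv3, a cation channel, went from 19.1 and 24.2 CPM to 92.2 and 84.5 CPM. Slc26a3 went from 165 and 194 CPM to 321 and 611 CPM. Not all transporters did so, as Atp12a went from 88.1 and 48.4 CPM to 49.6 and 35.3 CPM and Slc15a1 from 15.3 and 20.2 CPM to 7.09 and 14.8 CPM. The mucin gene Muc2 went from 913 and 969 CPM to 387 and 435 CPM. Cftr, which the crypt gate requires, had 1166 and 928 CPM in nuclei without a rule gene, 1658 and 1124 CPM at 0.2 to 0.3%, and 1275 and 926 CPM at 0.3 to 0.5%. Nuclei without a rule gene were shallower, with medians of 1526 and 2581 UMIs against 2928 and 4824.5 UMIs at 0.3 to 0.5%. In the highest bin, from 0.5% on, were 29 WT and 38 HIF-1α KO nuclei.

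**Figure D2:**
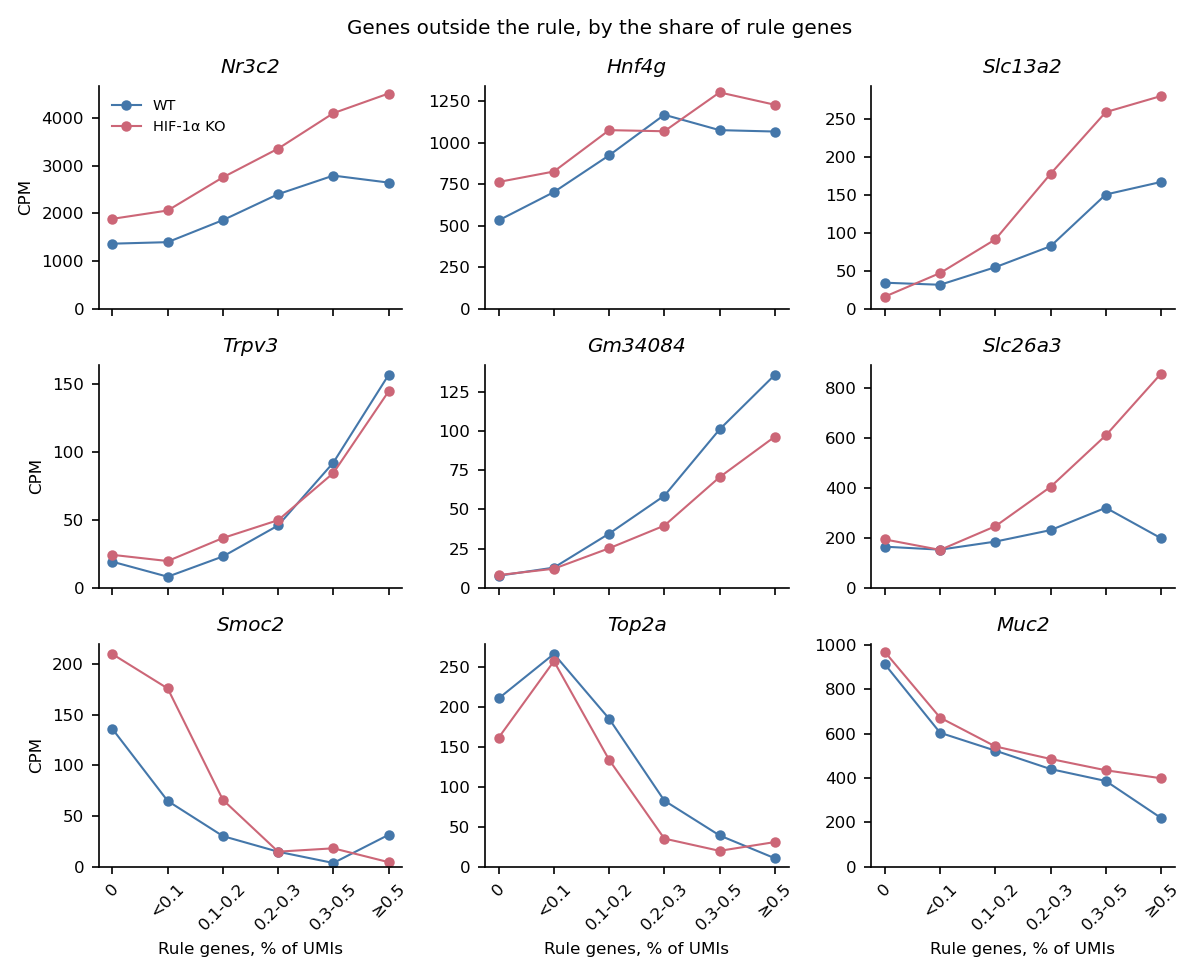
CPM of 9 genes that the rule did not use (y axes start at 0) in nuclei grouped by the share of their UMIs in rule genes, for the WT and HIF-1α KO libraries, without error bars. Nr3c2, Slc13a2, Trpv3 and Gm34084 were higher and Smoc2, Top2a and Muc2 lower at 0.3 to 0.5% than in nuclei without a rule gene, in both libraries. All nuclei under 0.3% passed the crypt gate, while members from 0.3% on need not have.

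Next, members were set beside crypt-gate nuclei of their own library. All of the latter passed the gate of Cftr and Htr4, but only 66.7% of WT and 61.4% of HIF-1α KO members did. The ratios thus mix the member rule with the crypt gate. They are descriptions of nuclei that the rule chose, and called means a difference of at least 2-fold in both libraries. Among 11214 genes with at least 50 UMIs, 55 (0.49%) were higher in members and 624 (5.56%) were lower. Without nuclei that also pass another gate, 139 of 10619 genes were higher and 439 lower, which raised the higher share of called genes from 8.10% to 24.0%. Division genes made up most of the lowest ratios. Of 15 cycling genes, 12 were lower in both libraries, with a median log2 ratio of -1.95 in WT and -2.90 in HIF-1α KO, while the median of all genes was -0.05 and -0.10. Mki67, the proliferation antigen Ki-67, had 31.6 and 13.9 CPM in members against 138 and 110 CPM in crypt-gate nuclei. Tpx2, a spindle assembly factor, had 11.1 and 9.02 CPM against 116 and 83.7 CPM. Kif2c, Ccnf, Ttk, Ndc80, Kif14, Esco2 and Prim1, which act in mitosis or DNA replication, were also among the 10 lowest, each with 6 UMIs or fewer in members of either library. Of 12 crypt and stem cell genes tested, 7 were lower in both libraries, namely Lgr5, Smoc2, Axin2, Ephb3, Lrig1, Cd44 and Slc12a2, with a median of -1.25 in each. The other genes of the 10 lowest were Fstl4, with 3.16 and 16.7 CPM against 52.8 and 134 CPM, and the receptor Ror2. Ror2 had 730 and 682 CPM in stromal-gate nuclei, and stromal genes were lower in members than in crypt-gate nuclei too, with 4 of 12 called.

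The 10 genes with the highest ratios over crypt-gate nuclei held transporters and enzymes among others. Slc13a2 had 157 and 264 CPM in members against 50.1 and 90.7 CPM, a log2 ratio of 1.64 (1.28 to 2.00) in WT and 1.54 (1.35 to 1.73) in HIF-1α KO. Trpv3 had 103 and 93.7 CPM against 23.1 and 32.3 CPM. Slc40a1, the iron exporter ferroportin, had 134 and 196 CPM against 48.0 and 63.1 CPM, with ratios of 1.48 (1.10 to 1.86) and 1.63 (1.41 to 1.86). Apol10a had 55.3 and 68.0 CPM against 16.0 and 17.5 CPM. The noncoding gene Gm34084 had 108 and 74.9 CPM against 29.4 and 23.7 CPM. Olfr165, 2010103J01Rik, 2010106E10Rik, Cyp2c67 and Ckmt2, a mitochondrial creatine kinase, completed the 10 highest at 12.5 to 34.8 CPM in members. Cyp2c67 is a near-identical copy of Cyp2c68, which was in the rule, and had 11 and 18 UMIs in members.

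Few listed genes were called higher. Of 19 genes of P450 enzymes and oxidation, 4 were higher in both libraries and 0 lower. They were Cyp2c67, Cyp2c55, Cyp3a13 and Hsd3b3, a hydroxysteroid dehydrogenase that had 245 and 346 CPM in members and 112 and 137 CPM in crypt-gate nuclei. The median of this list was 0.49 in WT and 0.57 in HIF-1α KO. Of 20 genes of fat oxidation 1 was called, Ppargc1a, a coactivator of mitochondrial genes, at 243 and 334 CPM against 104 and 154 CPM, and the list's median was 0.47 and 0.48. In ion absorption the median was 0.50 and 0.41, with 0 of 16 called higher and Kcnma1, a potassium channel that had 2956 and 4250 CPM in stromal-gate nuclei, called lower. Nr3c2 had a ratio of 0.69 in both libraries and Slc5a8, a sodium-coupled transporter of short-chain fatty acids, 0.86 and 0.75. In chloride secretion Ano1, a calcium-activated chloride channel, and Prkg2 were higher, and Slc12a2 and Kcnn4 were lower, among 9 genes. Il18, an epithelial cytokine, was the only gene of 17 in the inflammation list called higher, with 147 and 237 CPM against 59.6 and 104 CPM.

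**Figure D3:**
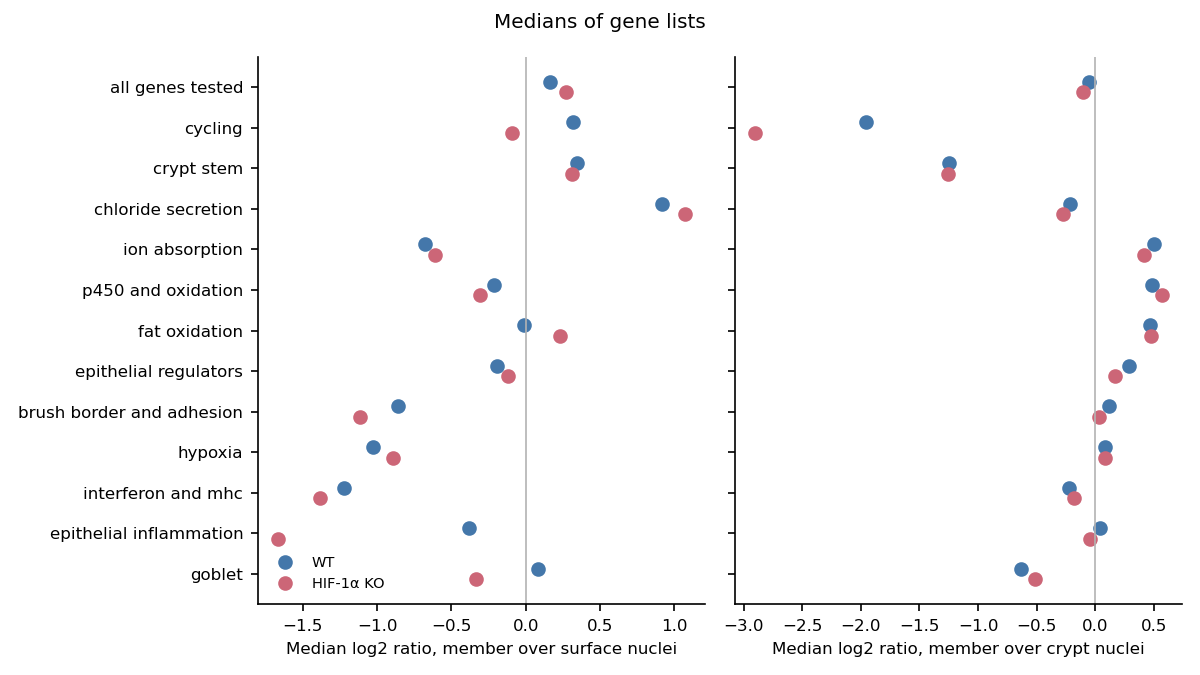
Median log2 ratio of gene lists, member over surface-gate nuclei (left) and member over crypt-gate nuclei (right), in the WT and HIF-1α KO libraries, beside all genes tested. Against crypt-gate nuclei the cycling list had medians of -1.95 and -2.90, and against surface-gate nuclei the brush border list had -0.86 and -1.12.

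Against surface-gate nuclei, 746 of 9886 genes (7.55%) were higher in members of both libraries and 629 (6.36%) lower. This split depended on the scaling. TMM scaling, which sets a trimmed mean of all ratios to 0, shifted every log2 ratio by -0.22 in WT and -0.34 in HIF-1α KO and gave 349 higher and 939 lower genes. Malat1, a nuclear RNA, had 32641 and 27256 CPM in members and 67405 and 55408 CPM in surface-gate nuclei. Among the 15 highest ratios, Grin2b, a glutamate receptor subunit, had 50.6 and 30.5 CPM against 3.10 and 3.12 CPM. Htr4 had 963 and 1105 CPM against 163 and 176 CPM. Plch2, a phospholipase C, had 106 and 108 CPM against 17.98 and 18.36 CPM. Shank2, a scaffold protein, had 175 and 255 CPM against 24.2 and 48.7 CPM, and Esr2, the oestrogen receptor beta, 53.8 and 47.9 CPM against 9.92 and 6.75 CPM. Dnah8, Iqch, Rims4, Shmt1, Sult1c2, Igdcc4, BC006965, Ube2cbp, Arhgap20 and Pbld2 were also among the 15 highest, with log2 ratios nearest to 0 from 2.28 to 2.61 across the libraries. Of 11 chloride secretion genes, 4 were higher in members (Htr4, Cftr, Kcnq1 and Prkg2) and 2 were lower (Clca4a and Clca4b). Cftr had 1266 and 986 CPM against 278 and 177 CPM, and Kcnq1 196 and 175 CPM against 65.1 and 65.3 CPM.

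Surface functions were lower in members. Slc15a1, the peptide transporter, had 7.90 and 13.9 CPM against 278 and 300 CPM, a log2 ratio of -5.13 in WT and -4.43 in HIF-1α KO. Atp12a, the colonic proton pump, had 45.8 and 35.4 CPM against 934 and 500 CPM. Lama3, a laminin chain, had 20.6 and 40.9 CPM against 283 and 721 CPM. Car4, Stk10, 4930539E08Rik, 9130209A04Rik, Ak4, Gcnt1, Emp1, Ifit1bl1, 5430427M07Rik, Cyp2d9, Ptprr and Dthd1 were the rest of the 15 lowest. In the brush border and adhesion list 9 of 25 genes were lower and 0 higher, with medians of -0.86 and -1.12 beside 0.17 and 0.27 for all genes. Among them, Muc13, a membrane mucin, had 1322 and 1350 CPM against 3203 and 3157 CPM. In ion absorption 5 of 17 were lower (Slc26a3, Slc9a2, Atp12a, Sgk1 and Slc20a1) and Slc5a8 was higher. Slc26a3 had 305 and 652 CPM in members against 1650 and 1824 CPM, so its level in members lay between those of crypt-gate and surface-gate nuclei. Hypoxia genes had a median of -1.03 and -0.89, with 7 of 22 lower, including the glucose transporter Slc2a1 at 25.3 and 25.7 CPM against 77.5 and 86.6 CPM, where its level in members was near the 24.3 and 30.7 CPM of stromal-gate nuclei. Genes of interferon response and antigen presentation had -1.22 and -1.38, with 8 of 14 lower. In the epithelial inflammation list 6 of 17 were lower, including Saa1, an acute phase protein, at 82.2 and 137 CPM against 847 and 795 CPM, and Duox2, an oxidase, at 53.8 and 73.6 CPM against 224 and 355 CPM. The Saa1 and Duox2 levels in members were close to those of stromal-gate nuclei, which were 120 and 162 CPM for Saa1 and 45.8 and 83.5 CPM for Duox2.

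The groups were compared by the share of nuclei first. Members made up 3.69% (3.17 to 4.25%) of WT and 5.61% (4.97 to 6.31%) of HIF-1α KO nuclei, a log2 ratio of 0.61 (0.34 to 0.87). Depth and cell composition also differed between the libraries. The rule needs 4 detected genes and the HIF-1α KO library was deeper. With nuclei thinned to 1000 UMIs the shares were 1.58% in WT and 2.82% in HIF-1α KO, a ratio of 0.84 (0.44 to 1.24). For this setting 63 HIF-1α KO nuclei that were shallower had been left out. At 1000 UMIs any nucleus with 4 rule genes also passes the limit of 0.3%, so that limit excluded none and the cut was stricter. Among nuclei with 2000 to 4000 UMIs the order was reversed, with shares of 5.64% in WT and 4.53% in HIF-1α KO. The ratio there was -0.31 (-0.74 to 0.11), an interval that includes 0. With nuclei thinned to 2000 UMIs the shares were 6.18% and 7.42%, a ratio of 0.26 (-0.005 to 0.53). For this setting 2359 WT and 549 HIF-1α KO nuclei that were shallower had been left out. As a share of nuclei that passed any epithelial gate, members were 7.25% in WT and 7.70% in HIF-1α KO, a ratio of 0.086 (-0.18 to 0.35). Stromal-gate nuclei were 5.41% in WT and 2.74% in HIF-1α KO, and surface-gate nuclei 6.78% and 16.6%. Without the gasdermin C genes in the rule, 85 WT and 92 HIF-1α KO nuclei were members and the ratio was 0.17 (-0.25 to 0.59). The size of the difference thus moved between these settings. Its direction turned among nuclei with 2000 to 4000 UMIs, within counting error of no difference. The part of depth and composition in the difference was not tested.

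**Figure D4:**
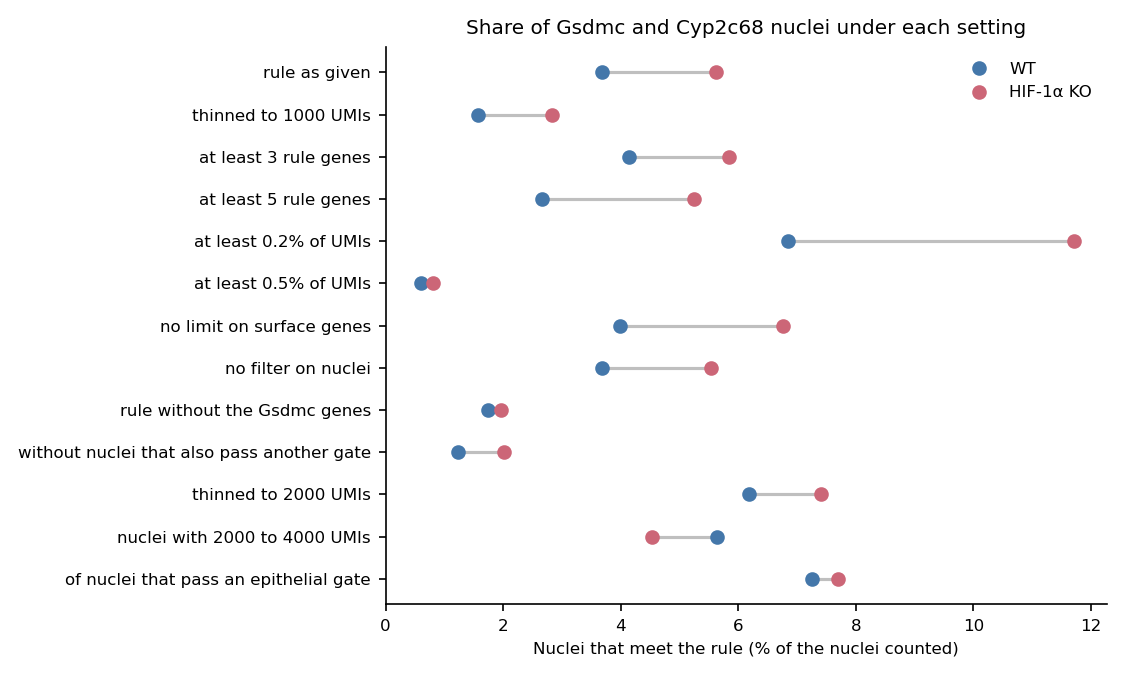
Share of nuclei that met the member rule (% of the nuclei counted, axis from 0) in the WT and HIF-1α KO libraries under the rule as given and other settings. The HIF-1α KO share was the higher in each setting but nuclei with 2000 to 4000 UMIs, where WT had 5.64% and HIF-1α KO 4.53%.

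Levels within members were then compared between the libraries. Among 6015 genes with at least 50 UMIs, 186 (3.09%) were at least 2-fold higher in HIF-1α KO members and 91 (1.51%) at least 2-fold lower, and the median log2 ratio was 0.06. None of the 9 rule genes passed 2-fold, and since the rule chose nuclei by these genes their ratios are given as a description only. The largest of them in size was Aqp4, at -0.61 (-0.75 to -0.47). Gsdmc3 had 0.43 (0.14 to 0.73), Gsdmc4 0.37 (0.16 to 0.59) and Gsdmc2 0.16 (-0.03 to 0.35). In all other kept nuclei the ratios were -0.39 for Aqp4, 0.67 for Gsdmc3, 0.65 for Gsdmc4 and 0.53 for Gsdmc2.

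Of 15 ion absorption genes 1 was higher in HIF-1α KO members and 0 were lower, with a median of -0.02. Of 5 genes of water channels and carbonic anhydrases, which include the rule gene Aqp4, 1 was lower. The lower gene was Car1, a cytosolic carbonic anhydrase, which had 294 CPM in WT and 80.5 CPM in HIF-1α KO members, a log2 ratio of -1.87 (-2.22 to -1.53), and -0.91 in all other nuclei. Its stromal-gate level was 121 and 54.6 CPM. Car2 had 400 and 287 CPM. The ion absorption gene was Slc26a3, with 305 CPM in WT and 652 CPM in HIF-1α KO members, a ratio of 1.10 (0.87 to 1.33), against 0.50 (0.37 to 0.63) in crypt-gate and 0.14 (0.08 to 0.21) in surface-gate nuclei. Nr3c2 had 2787 and 4171 CPM in members, with 0.58 (0.50 to 0.66), and the ratio was 0.59 in crypt-gate and 0.52 in surface-gate nuclei. Sgk1, a kinase that is induced by corticosteroids and acts on sodium absorption, had 15 UMIs in WT and 1 UMI in HIF-1α KO members, under the limit for calls, which gave -5.09 (-10.49 to -2.39), and -1.95 in all other nuclei. Zbtb16, another gene known to respond to glucocorticoids, had 79.0 and 18.7 CPM, with -2.08 (-2.81 to -1.37) in members and -2.43 in all other nuclei.

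Most of the largest ratios were shared with the rest of the library. The 10 highest genes were B430010I23Rik, Ccdc28a, Plet1, Far1os, Pard3bos1, Gm35188, Gm16599, 4930422I22Rik, Gm43824 and Gm12216, which had 2 to 8 UMIs in WT members. B430010I23Rik went from 3 to 99 UMIs, a ratio of 3.86 (2.27 to 6.16), and had 2.21 in all other nuclei. Plet1, an epithelial surface protein, went from 2 to 63 UMIs with 3.79 (1.88 to 6.87) and had 2.25 in all other nuclei. Each of these 10 genes was higher in HIF-1α KO in all other nuclei as well, by 0.99 to 2.68. Besides Zbtb16 and Car1, the 10 lowest were Gid8, Ranbp17, Nrg1, Frmd6, D5Ertd579e, Gm19951, Peli2 and Surf4, and all of them were lower in all other nuclei, by -2.43 to -0.62. D5Ertd579e had 669 and 201 CPM, with -1.74 (-1.96 to -1.52) in members and -1.36 in all other nuclei. Nrg1, a growth factor, had 136 and 39.6 CPM in members and 3026 and 2042 CPM in stromal-gate nuclei.

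**Figure D5:**
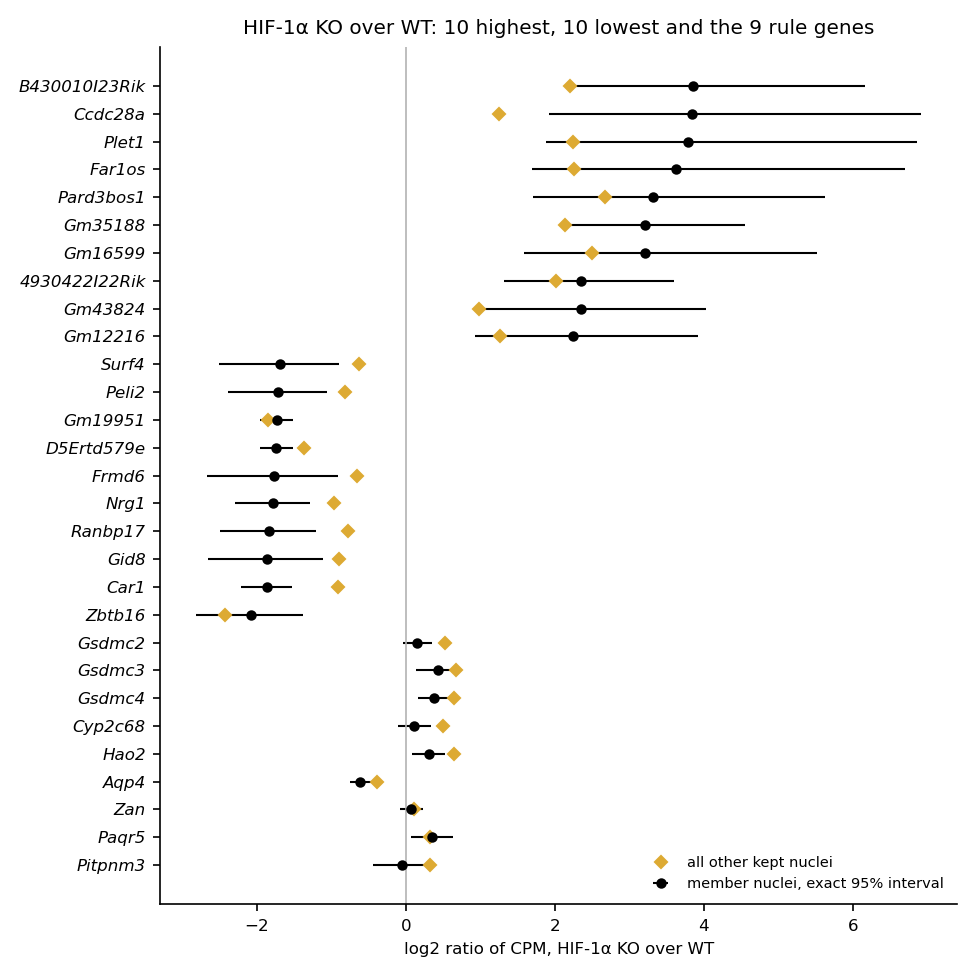
Log2 ratio of CPM, HIF-1α KO over WT, in member nuclei (black, exact 95% interval) and in all other kept nuclei (yellow) for the 10 highest, the 10 lowest and the 9 rule genes. Each of the genes with the most extreme ratios moved in the same direction in all other nuclei, and the rule genes lay between -0.61 and 0.43 in members.

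Few listed genes passed 2-fold between the libraries, beside 3.09% higher and 1.51% lower over all genes, and counts of 0 or 1 in lists of this size are not read as results about the lists. Of 12 hypoxia genes tested 0 passed, with a median of 0.25, and Hif1a had 0.19 (-0.15 to 0.53). The same count of 0 was found for 23 transcriptional regulators of the epithelium (median 0.07), 19 brush border and adhesion genes (0.27) and 15 receptors and ligands of growth pathways (0.03). The gasdermin and caspase list also holds rule genes, whose levels follow in part from the rule. In it 1 of 7 genes was higher, Casp1, an inflammatory caspase, with 10 and 81 UMIs and a ratio of 1.83 (0.88 to 2.94). Casp1 had 0.91 in all other nuclei. Of 10 inflammation genes 1 was lower, Nfkbia, an inhibitor of NF-kB, with 91.7 and 30.5 CPM and -1.586 (-2.186 to -0.996), while the ratio was -0.45 in crypt-gate and 0.10 in surface-gate nuclei. Of 18 fat oxidation genes 1 was lower, Acads, a short-chain acyl-CoA dehydrogenase, with 39 UMIs in each library and -1.19 (-1.87 to -0.51). Of 9 clock genes 1 was lower, Arntl, with 112 and 52.7 CPM and -1.09 (-1.58 to -0.60).

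Of 4 cycling genes with enough UMIs, 2 were lower in HIF-1α KO members, the polymerase subunit Pola1 at 101 and 43.0 CPM and Hells at 37.94 and 18.04 CPM. Both were lower in crypt-gate nuclei of HIF-1α KO by less, and Pola1 had -0.43 there against -1.23 (-1.76 to -0.71) in members. Hoxb9, a posterior Hox gene, had 251 and 111 CPM, with -1.18 (-1.50 to -0.85) in members and -0.68 in all other nuclei. Of 9 goblet genes 2 were higher, Clca1 at 55.3 and 127 CPM and Spink4 at 53.8 and 129 CPM. Their stromal-gate levels were 84.9 and 143 CPM for Clca1 and 56.6 and 162 CPM for Spink4, so both lie at or below the level of free RNA in members. In the P450 list, which also holds rule genes such as Hao2, 1 of 13 was higher, the sulfotransferase Sult1a1 with 10 and 58 UMIs. Cyp2c55 of this list had 199 and 131 CPM, with -0.60 (-0.94 to -0.27). Without replicate libraries, none of these differences can be told apart from differences between pools of animals or libraries.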

How the data were processed

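Single-nucleus RNA sequencing (10x Genomics 3′ v3.1) of colon was measured in 1 WT and 1 HIF-1α KO library. The authors ran Cell Ranger 7.0.1 on mm10 and deposited raw UMI counts per gene and nucleus, without normalization. Whether intronic reads were counted is not given in the sources used here.

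Nuclei with 400 to 5000 detected genes and at most 10% mitochondrial UMIs were kept, the limits of the study's methods. No doublet caller was run here. Counts were summed over the nuclei of a gate and divided by the UMIs of that gate (CPM). Genes needed 50 UMIs over the nuclei compared and were called past 2-fold, and a count of 0 took a floor of 3 counts. Shares have exact (Clopper-Pearson) binomial, CPM exact Poisson and ratios of CPM exact conditional 95% intervals. Intervals of ratios of shares use a normal approximation on the log scale. Nuclei were thinned to 1000 UMIs for shares of nuclei with a UMI.

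Genes named are the 9 rule genes and 5 surface genes, the genes of 27 lists, and the 10 highest and lowest of each comparison (15 for surface-gate nuclei). The members, gates and lists were chosen with earlier results of these data known, and the promoter motifs with the sequences in view. Alternatives were TMM and DESeq2 size factors as scalings only, thinning, other thresholds and other depths.

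Coordinates and transcripts are from GENCODE (GRCm38), which held 99.6% of gene identifiers, and promoters from RefSeq (GRCm38.p6). Transcripts were aligned locally. Python 3.11.15, numpy 2.4.6, scipy 1.17.1, pandas 2.3.3, R 4.3.3, edgeR 4.0.16 and DESeq2 1.42.0 were used.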

Additional observations from a re-analysis of the deposited data

Results flagged for a closer look

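Gsdmd, the gasdermin of pyroptosis, had ratios of opposite sign in different kinds of nuclei, though its interval in Gsdmc and Cyp2c68 nuclei includes 0. Its log2 ratio of HIF-1α KO over WT was -0.62 (-1.24 to 0.03) in Gsdmc and Cyp2c68 nuclei, from 37 and 55 UMIs, and 0.73 (0.47 to 1.01) in surface-gate nuclei. The immediate-early gene Fos had -0.77 (-1.49 to -0.04) in these nuclei, from 30 and 40 UMIs, and 0.64 (0.27 to 1.01) in crypt-gate nuclei, while it had -0.719 (-0.997 to -0.438) in goblet-gate nuclei. The difference between kinds of nuclei was not tested for either gene, since each group had 1 library.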

How the results depend on the processing

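The log2 ratio of the share of Gsdmc and Cyp2c68 nuclei, HIF-1α KO over WT, was 0.61 under the rule as given. It was 0.84 with nuclei thinned to 1000 UMIs, 0.98 with at least 5 rule genes and 0.17 without the gasdermin C genes. In settings chosen after seeing the data it was 0.26 with nuclei thinned to 2000 UMIs, 0.086 among nuclei that pass an epithelial gate and -0.31 among nuclei with 2000 to 4000 UMIs. The intervals of these ratios, and of the ratio without the gasdermin C genes, include 0. The cause of these changes was not tested.

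Counts of genes past 2-fold between the libraries were 186 higher and 91 lower in HIF-1α KO. They were 49 and 22 after thinning to 1000 UMIs, 527 and 314 with genes of at least 20 UMIs, 111 and 47 without nuclei that also pass another gate, and 51 and 33 in members with 2000 to 4000 UMIs, where fewer or more genes were tested. Against surface-gate nuclei the higher genes were 349 under TMM and 239 after thinning, and the lower genes 336 after thinning. Against crypt-gate nuclei the lower genes were 330 after thinning. The higher genes were 139 with genes of at least 20 UMIs and also 139 without nuclei that pass another gate.

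Signs turned for few single genes. The ratio of Cyp2c68 was -0.21 after thinning. Without nuclei that also pass another gate, the ratios were -0.13 for Gm43824, -0.062 for Hao2, -0.016 for Zan and 0.15 for Pitpnm3, which had 0.19 in members with 2000 to 4000 UMIs. Esco2 had a ratio of 0.68 of member over crypt-gate nuclei after thinning, from very few UMIs. Of the other values of single genes under alternatives, 343 moved by less than their interval and 53 by more. The 343 include values under the lowered limit of UMIs per gene, which only sets the genes tested and leaves each ratio unchanged. They also include values under TMM and DESeq2 scaling, which shift all ratios of HIF-1α KO over WT by the same amount. The 343 are therefore no measure of how stable the ratios are. No library could be left out, since each group had 1. No paired analysis was possible because each group had 1 library.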
